A study of Mus musculus with 20 samples.

Results

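The comparison described here set WT mouse hearts from high-fat diet (HFD) feeding against WT hearts from chow feeding, with 5 libraries on each diet, which are 10 of the 20 libraries of the series. The HFD libraries were RT12, RT14, RT16, RT18 and RT19, and the chow libraries were RT1, RT3, RT5, RT8 and RT10. All WT mice were males carrying floxed alleles of the gene for acetyl-CoA carboxylase 2 (ACC2, gene Acacb) and no Cre, so they were floxed controls, with ACC2 intact, and not animals with an unmodified Acacb gene. From 8 weeks of age they were given tamoxifen on 5 days (20 mg/kg), as was every other mouse of the series, and the HFD groups began that diet 4 weeks later and stayed on it for 16 weeks. The other 10 libraries came from iKO mice, which carry the same floxed alleles plus MerCreMer, a Cre recombinase that tamoxifen switches on, and which ate HFD (5 libraries) or chow (5 libraries). Left ventricle was profiled by poly(A) RNA-seq. Of 25052 genes in the tables, the 12775 with at least 0.5 FPKM (fragments per kilobase of transcript, scaled to sequencing depth) in at least 5 of the 20 libraries were tested, and every level below is FPKM rescaled by median of ratios. Every chow library carries a number of 10 or lower and every WT HFD library a number of 12 or higher, so diet and any order that those numbers mark cannot be told apart. Per the labels each group had 5 mice, with 1 library for each.

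The adult heart makes most of its ATP by burning fatty acids in mitochondria and keeps glucose, lactate and ketone bodies in reserve. Fatty acids also act as ligands of PPAR-alpha, a nuclear receptor that binds DNA with RXR and switches on genes for fatty acid uptake, transfer into mitochondria, beta-oxidation and thioester hydrolysis. Malonyl-CoA, which ACC2 makes at the mitochondrial surface, blocks carnitine palmitoyltransferase 1 and so the entry of fatty acids into mitochondria. High-fat feeding delivers more fatty acid to heart muscle, and PPAR-alpha target genes are a common readout of that load in rodent hearts.

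Assigned reads, as estimated from the low values, numbered 23.7 to 32.1 M (mega) in HFD hearts against 19.2 to 22.7 M in chow hearts (exact permutation test, two-sided, p = 0.00794, the smallest 5 against 5 can give). The 13 mitochondrially encoded genes took 34.3 ± 0.787% of all FPKM in HFD libraries and 32.1 ± 0.347% in chow libraries (SD, n = 5 each, exact permutation test, two-sided, p = 0.00794), which is why the values were rescaled. Acacb stood at 40.1 ± 2.71 in HFD hearts and 38.1 ± 1.82 in chow hearts (SD, n = 5 each) and did not pass the test (log2 fold change 0.071, SE 0.066, adjusted p = 0.7), a direction that turned under 2 of the 11 alternative settings. Ventricular markers were high and lung markers near 0 in each library, while chow library RT1 also held atrial muscle transcripts, with Myl7 at 139 and Sln at 54.0, against at most 0.0898 and 0.207 in the other chow libraries. RT1 was at the same time the lowest chow library for the fatty acid oxidation genes Decr1, Acaa2, Hadhb and Acadm, so results that rest on it are also given without it.

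A small share of the heart transcriptome differed between diets, mostly by modest amounts. In HFD hearts 180 genes were higher (1.41% of the genes tested) and 152 were lower (1.19%) by limma with Benjamini-Hochberg adjusted p under 0.05, 332 in all (2.6%). In whole tissue, fewer cells of a type and less RNA per cell cannot be told apart for any of them. The shares of 1.41% higher and 1.19% lower are the background for each list count below that comes from this fit in WT hearts. Counts under other settings or in iKO hearts have a different background, such as 929 of 12775 genes lower on the FPKM as deposited. Among the 332 the median size of the log2 fold change was 0.33, 271 changed by less than 0.5, and 11 changed by more than 1, 7 upward and 4 downward. Each log2 fold change here is a difference on log2(FPKM + 1), which understates the change of low genes. Edn3, for example, had 0.73 on this scale and a 2.47-fold ratio of means, so the counts by size hold for this scale only. The 5 HFD libraries lay wholly above or wholly below the 5 chow libraries for 273 of the 332, 149 above and 124 below, while over all genes tested such separation occurred upward in 333 (2.61%) and downward in 309 (2.42%). How the libraries were scaled moved the balance of the calls, which was 98 higher and 929 lower on the FPKM as deposited, 99 higher and 492 lower when scaled to the sum outside mitochondrially encoded genes, and 148 higher and 205 lower with upper-quartile scaling. The sum outside the 13 mitochondrially encoded genes still held nuclear copies of their sequences, at 24.7% of FPKM in HFD and 23.3% in chow libraries. All 152 lower genes were called lower under each of these 3 scalings, and of the 180 higher genes 98, 97 and 148 were called higher. Each of the 3 scalings moved values downward as a whole. The median over all genes tested, -0.00049 as reported, became -0.084, -0.070 and -0.016 in the same order. Such a shift favours lower calls and works against higher ones, so the kept lower calls do not test the lower genes. Leaving out 1 library at a time gave 106 to 211 higher and 87 to 193 lower genes. The higher count moved by over 1.5 times without RT12 (106) or RT1 (115), and the lower count without RT12 (87), RT5 (96), RT8 (96) or RT14 (97).

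**Figure D1:**
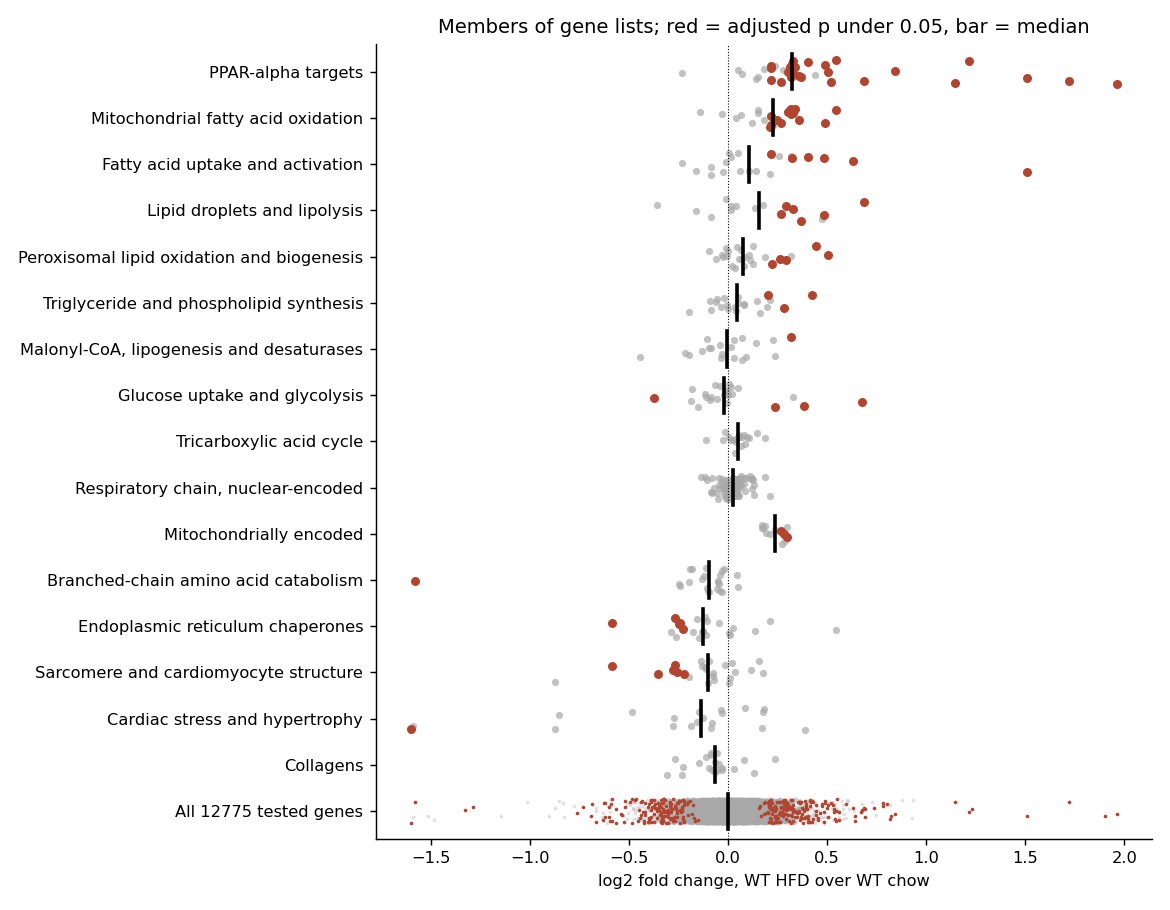
Log2 fold change of HFD over chow in WT hearts (x axis) for the tested members of 16 gene lists and for all 12775 genes tested (y axis). Each point is a gene, red where adjusted p was under 0.05, and the black bar is the median, which was 0.32 for PPAR-alpha targets and 0.22 for mitochondrial fatty acid oxidation.

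Genes of fatty acid handling led the rise. Of the 41 listed PPAR-alpha target genes, 36 were expressed enough to be tested, and 26 of these 36 were higher in HFD hearts and none lower, beside 1.41% higher among all genes tested. Their median log2 fold change was 0.32, against a median of -0.00049 over all genes tested, and 35 of 36 lay above 0. The count was 21 to 26 when 1 library was left out, 22 without RT1, and 22 were higher on the FPKM as deposited. Lpl was called lower under 7 of the 11 alternative settings, the 3 other scalings among them, and under none of the fits with 1 library left out. Pdk4 (chr6:5483351-5496309, minus strand, GRCm38), the kinase that turns off pyruvate dehydrogenase when fat is the fuel, had 327, 326, 144, 476 and 356 FPKM in HFD libraries, against 93.9, 145, 132, 73.9 and 48.3 in chow libraries. HFD library RT16 lay just under chow library RT3, so the groups overlapped, while the other 4 HFD libraries were all above every chow library. The rise passed the test (log2 fold change 1.72, SE 0.37, adjusted p = 0.017) but not in a fit of the 10 WT libraries alone. Angptl4, a secreted inhibitor of lipoprotein lipase, had 6.66, 5.53, 7.44, 13.4 and 14.3 FPKM in HFD libraries, against 2.095, 4.09, 3.298, 2.37 and 1.19 in chow libraries. RT18 and RT19 were the highest, and no HFD library was as low as any chow library (log2 fold change 1.51, SE 0.31, adjusted p = 0.012).

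**Figure D2:**
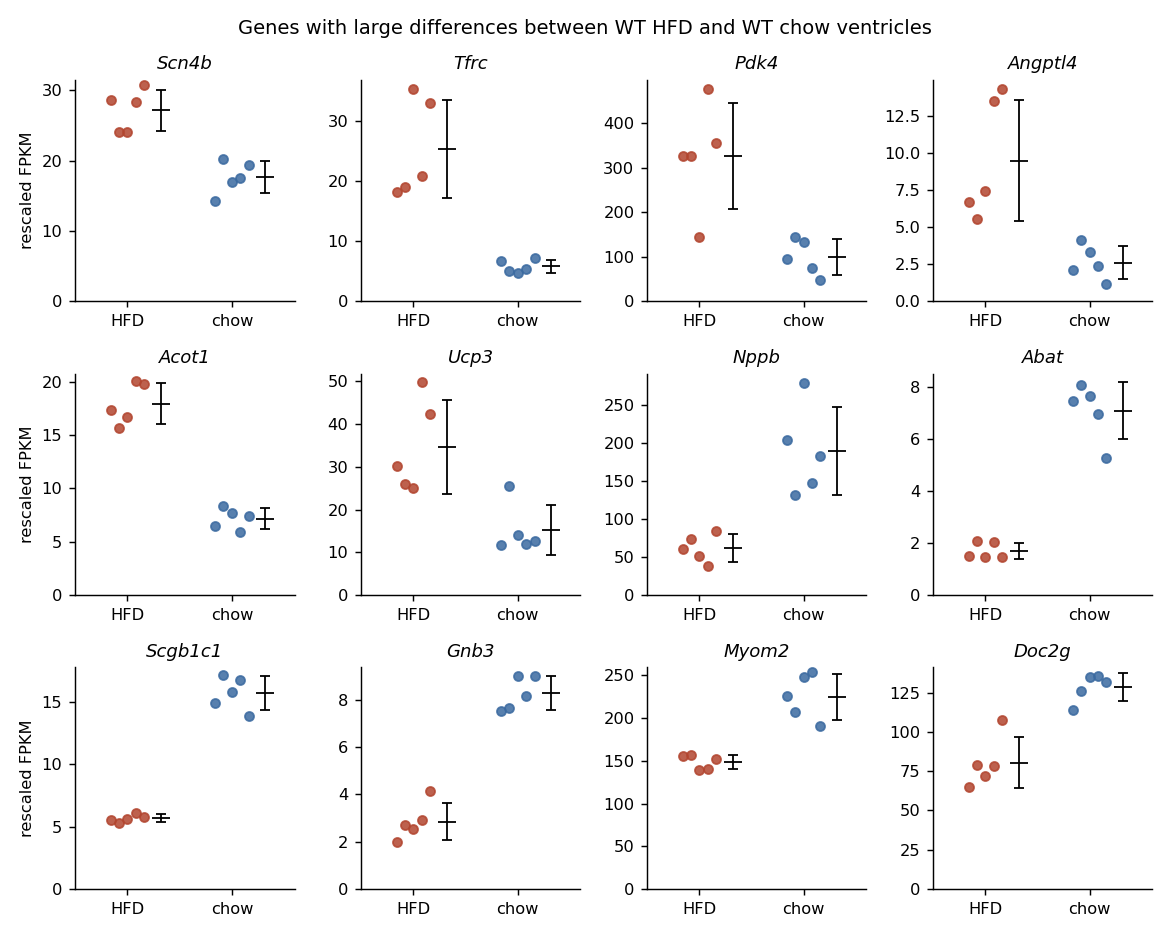
Rescaled FPKM (y axes, from 0) of 12 genes in the 5 HFD and 5 chow WT libraries, 1 dot per library with mean and SD. The HFD and chow dots are separate except for Pdk4 and Ucp3.

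Of 11 tested acyl-CoA thioesterases 2 were higher, Acot1 and Acot2, and of 6 tested uncoupling proteins and nucleotide carriers 2 were higher, Ucp2 and Ucp3. Acot1, a cytosolic acyl-CoA thioesterase, had 17.4, 15.7, 16.7, 20.1 and 19.8 FPKM in HFD libraries, against 6.505, 8.37, 7.66, 5.87 and 7.41 in chow libraries (log2 fold change 1.22, SE 0.13, adjusted p = 1.1e-05). Acot2, its mitochondrial neighbour on chromosome 12, had 39.1, 36.6, 36.9, 46.2 and 40.9 FPKM in HFD libraries, against 18.9, 24.7, 24.4, 20.7 and 20.6 in chow libraries (log2 fold change 0.84, SE 0.092, adjusted p = 1.1e-05). Neither gene's groups overlapped. The coding sequences of Acot1 and Acot2 are nearly identical, so reads could have been divided between them and their separate levels are uncertain. The other 9 thioesterases did not pass, nor did the other 4 carriers. Ucp2 had 42.2, 45.2, 36.1, 44.2 and 36.5 FPKM in HFD libraries, against 20.1, 27.6, 20.01, 24.9 and 21.4 in chow libraries, with no overlap (log2 fold change 0.82, SE 0.12, adjusted p = 0.00067). Ucp3, the muscle uncoupling protein, had 30.3, 25.9, 25.1, 49.8 and 42.4 FPKM in HFD libraries, against 11.8, 25.5, 14, 12.1 and 12.7 in chow libraries. Chow library RT3 reached the level of the lower HFD libraries, and the call (log2 fold change 1.15, SE 0.29, adjusted p = 0.043) was lost without RT1, RT5, RT8, RT10, RT12, RT14, RT18 or RT19, with adjusted p up to 0.11.

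Inside mitochondria the rise ran through most steps of beta-oxidation, at a smaller size than for Acot1. Of 23 tested genes of mitochondrial fatty acid oxidation, 14 of which are also in the PPAR-alpha list, 14 were higher and none lower, with a median log2 fold change of 0.22. Between 11 and 16 were higher with 1 library left out, 11 without RT1 or RT12, and 10 were higher on the FPKM as deposited. At the carnitine shuttle, Slc25a20, the carnitine-acylcarnitine translocase, ranged over 130.2 to 155 FPKM in HFD hearts against 89.7 to 108 in chow hearts (log2 fold change 0.49, SE 0.061, adjusted p = 6.4e-05). Cpt2, the inner-membrane transferase, rose in the same way (107 to 123 FPKM in HFD hearts against 84.5 to 98.3 in chow hearts, log2 fold change 0.36, SE 0.050, adjusted p = 0.00026). The malonyl-CoA-sensitive outer-membrane enzymes gave smaller values that did not pass the test, Cpt1b at a log2 fold change of 0.18 with adjusted p = 0.063 and Cpt1a at a log2 fold change of 0.15 with adjusted p = 0.41. Decr1, the 2,4-dienoyl-CoA reductase needed for polyunsaturated fats, had 248, 212, 228, 229 and 244 FPKM in HFD libraries, against 151, 159, 162, 160.4 and 162 in chow libraries, so that each HFD library exceeded each chow library. Its log2 fold change, 0.55 (SE 0.060, adjusted p = 1.1e-05), was the largest of the 23. Eci2, an isomerase for unsaturated chains, rose too (log2 fold change 0.33, SE 0.051, adjusted p = 0.00076).

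The genes in the following sentences were chosen after their values were seen, to fill in the steps of the spiral. Among acyl-CoA dehydrogenases, Acadl for long chains gave a log2 fold change of 0.31 with adjusted p = 0.00097, and Acadvl for very long chains gave a log2 fold change of 0.30 with adjusted p = 0.0084. Acadm for medium chains gave a log2 fold change of 0.22 with adjusted p = 0.033, a call lost without RT1, RT3, RT5, RT8, RT10, RT12 or RT19, with adjusted p up to 0.096. The Acadm call was also lost on the FPKM as deposited and with no filter. Hadha and Hadhb, the subunits of the trifunctional protein, were both higher. Hadha ranged over 534 to 588 FPKM in HFD hearts against 428 to 469 in chow hearts (log2 fold change 0.32, SE 0.056, adjusted p = 0.0024). Hadhb, an abundant transcript, ranged over 1455 to 1593 FPKM in HFD hearts against 1193 to 1297 in chow hearts (log2 fold change 0.27, SE 0.048, adjusted p = 0.0028). Acaa2, the thiolase that ends each turn, had 695, 611, 661, 661 and 737 FPKM in HFD libraries, against 484, 547, 539.7, 539.7 and 547 in chow libraries (log2 fold change 0.34, SE 0.059, adjusted p = 0.0024), with no overlap. Etfdh, which passes the electrons to ubiquinone, also rose (log2 fold change 0.32, SE 0.053, adjusted p = 0.0014), and Crat, carnitine acetyltransferase, gave a log2 fold change of 0.25 with adjusted p = 0.038, a call lost without RT1, RT3, RT5, RT8, RT10, RT12, RT16 or RT18, with adjusted p up to 0.11. The Crat call was also lost on the FPKM as deposited, when scaled outside mitochondrially encoded genes and with no filter.

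**Figure D3:**
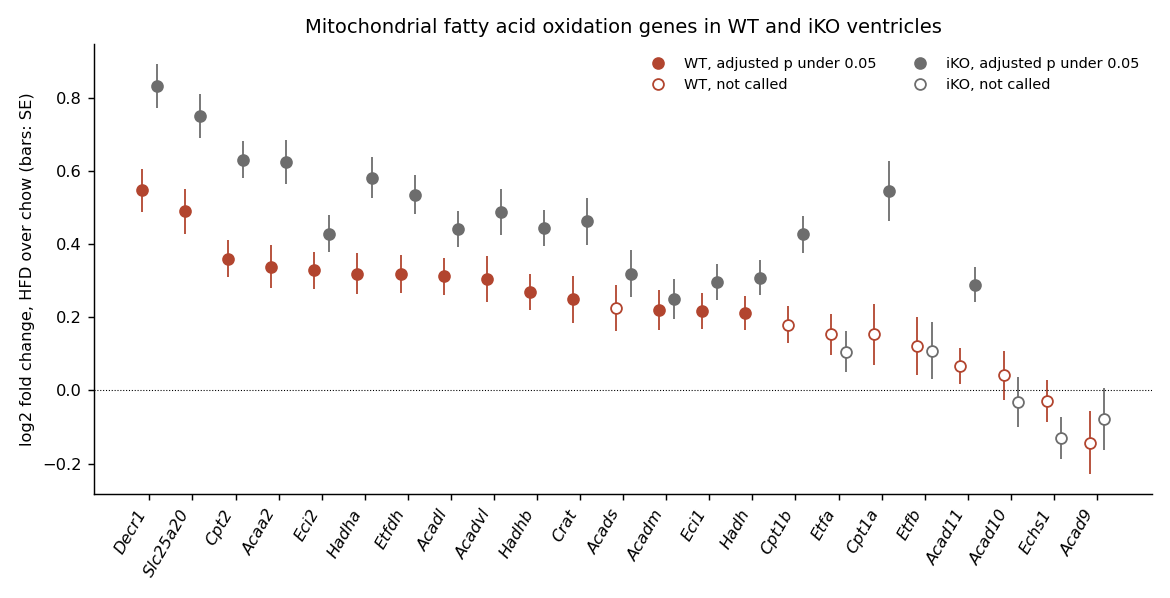
Log2 fold change of HFD over chow (y axis) with its SE for the 23 tested genes of mitochondrial fatty acid oxidation (x axis), in WT and in iKO hearts. In WT hearts 14 passed the test, from 0.21 for Hadh to 0.55 for Decr1, and most iKO values lie above the WT value of the same gene.

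Genes that take up, bind and activate fatty acids changed at only some steps. Of 21 tested genes, 5 of which are also in the PPAR-alpha list, 6 were higher (1.41% of all genes tested were higher). None was lower, and the median was 0.11. The count fell to 3 without RT10, RT12 or RT18. Fabp3, which carries fatty acids through the cytosol of muscle cells, had 4610, 4124, 4288, 4321 and 5128 FPKM in HFD libraries, against 3240, 3448, 3453, 3401 and 3420 in chow libraries. The groups were far apart relative to their spread (log2 fold change 0.40, SE 0.054, adjusted p = 0.00017). Dbi, the acyl-CoA-binding protein, ranged over 172 to 218 FPKM in HFD hearts against 119 to 129 in chow hearts and had the smallest p of the list (log2 fold change 0.63, SE 0.061, adjusted p = 3.3e-06). Cd36, the fatty acid translocase, gave a log2 fold change of 0.32, SE 0.075, adjusted p = 0.021, with no overlap but with the call lost without RT8, RT10, RT12, RT14 or RT18, with adjusted p up to 0.059. Acsl1, the main long-chain acyl-CoA synthetase of heart, gave a log2 fold change of 0.22 with adjusted p = 0.035, a call lost without RT1, RT5, RT8, RT10, RT12, RT14 or RT18, with adjusted p up to 0.11. The Acsl1 call was also lost on the FPKM as deposited, when scaled outside mitochondrially encoded genes and with no filter. Lpl, which frees fatty acids from circulating lipoproteins, went the other way, at 1229 to 1374 FPKM in HFD hearts against 1483 to 1568 in chow hearts, without passing the test (log2 fold change -0.23, SE 0.064, adjusted p = 0.054). It and Acsl1 were chosen after their values were seen.

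Droplet coat proteins and lipases were higher in part. Of 16 tested genes of lipid droplets and lipolysis, 6 were higher (1.41% of all genes tested were higher) and none lower (median 0.16), with 3 higher without RT1, RT12 or RT18. Of the 16, 3 are also in the PPAR-alpha list, namely Plin2, Plin5 and Cidea. Plin5, which ties droplets to mitochondria in oxidative tissue, had 72.97, 66.4, 55.3, 84.5 and 79.2 FPKM in HFD libraries, against 42.5, 47.2, 47, 42.04 and 40.4 in chow libraries, with no overlap (log2 fold change 0.68, SE 0.13, adjusted p = 0.0057). Plin2, the general droplet coat, gave a log2 fold change of 0.37, SE 0.068, adjusted p = 0.0035, and Mgll, monoglyceride lipase, gave a log2 fold change of 0.27, SE 0.050, adjusted p = 0.0038. Lipe, hormone-sensitive lipase, gave a log2 fold change of 0.49 with adjusted p = 0.022, with overlapping groups and the call lost without RT1, RT10, RT12 or RT18, with adjusted p up to 0.066. Cidea, a droplet-fusion protein, gave a log2 fold change of 0.33 with adjusted p = 0.024, a call lost on the FPKM as deposited and without RT1, RT3, RT8, RT12, RT18 or RT19, with adjusted p up to 0.067, and Fitm2 was the remaining member called, lost without RT1, RT5, RT8, RT10, RT12, RT14, RT16 or RT18, with adjusted p up to 0.11. The Fitm2 call was also lost on the FPKM as deposited, when scaled outside mitochondrially encoded genes and with no filter. The adipocyte markers Adipoq, Plin1 and Lep were close to 0. Adipoq stood at 0.0212 to 0.167 FPKM in HFD hearts and 0.0886 to 0.509 in chow hearts, Plin1 reached at most 0.125 and Lep at most 0.0405 in any WT library. The 10 white adipocyte markers summed to 1706 to 1954 FPKM in HFD hearts and 1887 to 2020 in chow hearts, with 2 of them tested and 0 called, and Lpl made up most of that sum. Fabp4, the other one tested, went upward without overlap, at 476 to 579 FPKM in HFD hearts against 399 to 467 in chow hearts. Of the 10 brown adipocyte markers 8 had values and 6 were tested, with Cidea and Pdk4 called. The 8 summed to 988 to 1382 FPKM in HFD hearts and 892 to 1077 in chow hearts. Cox8b (mean 817 in HFD and 831 in chow hearts) and Pdk4 (326 and 98.8) made up most of that sum. The part of the brown adipocyte markers in the lipid gene rises was not tested.

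Peroxisomes contributed 5 higher genes of 26 tested (1.41% of all genes tested were higher), none lower, with a median of 0.075 that turned negative on the FPKM as deposited (-0.023). Of the 26, 3 are also in the PPAR-alpha list. Pex11a, which divides peroxisomes, ranged over 12.5 to 16.9 FPKM in HFD hearts against 9.14 to 10.5 in chow hearts (log2 fold change 0.51, SE 0.077, adjusted p = 0.00067). Ech1, a dienoyl-CoA isomerase, ranged over 1167 to 1453 FPKM in HFD hearts against 875 to 1021 in chow hearts (log2 fold change 0.44, SE 0.073, adjusted p = 0.0013). Abcd3, a peroxisomal fatty acid transporter, gave a log2 fold change of 0.29 with adjusted p = 0.0014, and catalase (Cat) gave a log2 fold change of 0.26 with adjusted p = 0.0065. Lipid synthesis moved little. Of 22 tested genes of triglyceride and phospholipid synthesis, 3 were higher, and Lpcat3, which places polyunsaturated chains in phospholipids, led them (log2 fold change 0.42, SE 0.067, adjusted p = 0.00097). The other 2 were Chkb (log2 fold change 0.28, adjusted p = 0.044, lost without RT1, RT5, RT8, RT10, RT12, RT18 or RT19, with adjusted p up to 0.13) and Agpat3 (log2 fold change 0.20, adjusted p = 0.045, lost without RT1, RT5, RT8, RT10, RT12, RT14, RT16 or RT18, with adjusted p up to 0.14), neither called under any of the 3 other scalings, and the list kept only 1 call without RT1, RT5, RT8, RT10, RT12 or RT18. Among 20 tested genes of malonyl-CoA metabolism, lipogenesis and desaturation, Me1, the cytosolic malic enzyme, was the sole call (log2 fold change 0.32, SE 0.048, adjusted p = 0.00061). Acaca gave a log2 fold change of -0.22 with adjusted p = 0.15, and Scd1 gave a log2 fold change of -0.087 with adjusted p = 0.86. In sterol synthesis, 2 of 24 tested genes were lower and none higher, namely Srebf2, its transcription factor (log2 fold change -0.28, SE 0.053, adjusted p = 0.005), and Idi1, isopentenyl-diphosphate isomerase (log2 fold change -0.34, SE 0.067, adjusted p = 0.0068).

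The regulators of these genes were mostly without a call. Of 28 tested nuclear receptors, coactivators and AMP kinase subunits, 2 were higher (1.41% of all genes tested were higher). Pparg, the PPAR better known from adipocytes, had 6.38, 6.83, 5.63, 7.28 and 6.69 FPKM in HFD libraries, against 4.09, 4.14, 4.98, 4.75 and 3.46 in chow libraries, with no overlap (log2 fold change 0.52, SE 0.11, adjusted p = 0.0094). Prkag2, a regulatory AMP kinase subunit, gave a log2 fold change of 0.35 with adjusted p = 0.031, a call lost on the FPKM as deposited and without RT3, RT5, RT8, RT10, RT12 or RT14, with adjusted p up to 0.1. Ppara itself, chosen after its values were seen, stood at 12.1 ± 2.399 in HFD hearts and 12.3 ± 1.18 in chow hearts (SD, n = 5 each), without passing the test (log2 fold change -0.041, SE 0.14, adjusted p = 0.94). HFD library RT19, at 7.88, stood below the other HFD libraries, and the sign of the small difference turned with library weights and without RT1 or RT19 (up to 0.093). Promoter windows were searched for a DR1-type element, here 2 copies of AGGNCA separated by 1 base, on both strands and counted once per gene. None of the 21 higher PPAR-alpha targets with an entry among the RefSeq promoters (250 bases before to 50 after the start, GRCm38.p6) held one, against 25 of 9500 tested genes (0.263%). Nor did any of the 120 higher genes of all kinds with an entry. With a match this rare among tested genes, a count of 0 in 21 cannot show that the targets lack it.

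Carbohydrate genes gave a mixed picture. Among 14 tested genes of pyruvate import and dehydrogenase, Pdk4 and Pdk1 were higher, the second lost without RT1, RT3, RT5, RT10, RT12, RT14 or RT18, with adjusted p up to 0.089. Of 24 tested genes of glucose uptake and glycolysis, 3 were higher and 1 lower, with a median of -0.019. Fbp2, the muscle fructose bisphosphatase that opposes phosphofructokinase, had 30.4, 23.98, 29.02, 28.5 and 31.3 FPKM in HFD libraries, against 17.8, 17.8, 17.6, 17.8 and 16.5 in chow libraries. No libraries overlapped, and the chow group was tight (log2 fold change 0.68, SE 0.072, adjusted p = 1.1e-05). Pfkl, the liver-type phosphofructokinase, ranged over 27.7 to 31.4 FPKM in HFD hearts against 21.5 to 23.2 in chow hearts (log2 fold change 0.38, SE 0.055, adjusted p = 0.00041). Ldha, lactate dehydrogenase A, gave a log2 fold change of 0.23 with adjusted p = 0.02, a call lost on the FPKM as deposited and without RT3, RT5 or RT12, with adjusted p up to 0.066. Slc2a1, the GLUT1 transporter, was lower, at 2.93 to 3.43 FPKM in HFD hearts against 4.01 to 4.67 in chow hearts (log2 fold change -0.37, SE 0.083, adjusted p = 0.016). Slc2a4, the insulin-regulated GLUT4, gave a log2 fold change of -0.15 with adjusted p = 0.23, with overlap. In the insulin signalling list, 1 of 30 tested genes passed, Akt1, lower at a log2 fold change of -0.26 with adjusted p = 0.011.

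Oxct1, an enzyme of ketone body oxidation in muscle, fell. Oxct1 had 310.5, 328, 335, 358 and 331 FPKM in HFD libraries, against 423, 409.8, 403, 390.4 and 415 in chow libraries, with no overlap (log2 fold change -0.30, SE 0.051, adjusted p = 0.0021). Acat1, a thiolase used in both directions, gave a log2 fold change of 0.22 with adjusted p = 0.029, a call lost on the FPKM as deposited and without RT1, RT3, RT5, RT8, RT12, RT18 or RT19, with adjusted p up to 0.066. Bdh1, which starts beta-hydroxybutyrate oxidation and was chosen after its values were seen, gave a log2 fold change of -0.44 with adjusted p = 0.18. Downstream, none of 20 tested genes of the tricarboxylic acid cycle, 79 of the nuclear-encoded respiratory chain or 77 of the mitochondrial ribosome passed in either direction, with medians of 0.052, 0.026 and 0.010. On the FPKM as deposited the medians were -0.054, -0.080 and -0.093, and 1, 4 and 3 genes were lower, while 2 tricarboxylic acid cycle and 2 respiratory chain genes were higher with the residual component as covariate. The 13 mitochondrially encoded genes all lay above 0 (median 0.24), and 3 passed, mt-Nd4, mt-Cytb and mt-Nd2. mt-Cytb had 34080, 36170, 33290, 35260 and 39140 FPKM in HFD libraries, against 28250, 30140, 30840, 29370 and 29120 in chow libraries (log2 fold change 0.27, SE 0.061, adjusted p = 0.018). RT19 was the highest, the groups did not overlap, and none of the 3 passed without RT1 (adjusted p 0.050 to 0.053). Nuclear copies of these sequences took a further 24.7 ± 1.07% of FPKM in HFD libraries and 23.3 ± 0.253% in chow libraries, so reads were divided between copies and each mitochondrial level is uncertain.

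Outside fuel metabolism, the largest rise was in Tfrc (chr16:32608920-32632794, plus strand), the transferrin receptor that brings iron into cells. Tfrc had 18.2, 19.1, 35.3, 20.8 and 32.9 FPKM in HFD libraries, against 6.75, 5.097, 4.72, 5.38 and 7.24 in chow libraries. RT16 and RT19 stood above the other HFD libraries, and the lowest HFD library was well over the highest chow library (4.33-fold ratio of means, log2 fold change 1.90, SE 0.20, adjusted p = 2.6e-05). Tfrc was the only higher gene of 20 tested iron genes, and Steap4, a metalloreductase, the only lower one (log2 fold change -0.27, SE 0.058, adjusted p = 0.013). Ftl1, the ferritin light chain, lay wholly lower at 224 to 261 FPKM in HFD hearts against 279 to 348 in chow hearts without passing (log2 fold change -0.35, adjusted p = 0.087, chosen after its values were seen). Red-cell precursors are rich in Tfrc. The 7 tested erythroid markers included 0 called, with a median log2 fold change of 0.29, and the list summed to 1967 to 3066 FPKM in HFD hearts and 1587 to 2489 in chow hearts. Their part in the Tfrc rise was not tested.

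Further rises touched signalling, one-carbon and channel genes, besides A930011G23Rik (log2 fold change 0.82, adjusted p = 0.0094) and 2210407C18Rik (log2 fold change 0.80, adjusted p = 0.033, lost without RT1, RT3, RT5, RT14, RT16 or RT18, with adjusted p up to 0.094). Gm23119, annotated as a small Cajal body RNA, gave a log2 fold change of 1.23 with adjusted p = 0.034, a call lost without RT1, RT5, RT8, RT12, RT14, RT16 or RT18, with adjusted p up to 0.089. It was also lost with pseudocounts of 0.1 and 0.5, with no filter and in the 10 WT libraries alone. Edn3, an endothelin, ranged over 1.68 to 2.199 FPKM in HFD hearts against 0.462 to 1.08 in chow hearts (log2 fold change 0.73, SE 0.12, adjusted p = 0.0013). Lgals4, a galectin, ranged over 9.63 to 13.4 FPKM in HFD hearts against 4.79 to 7.34 in chow hearts (log2 fold change 0.78, SE 0.15, adjusted p = 0.0064). Scn4b, a sodium channel beta subunit, had 28.6, 24.02, 24.1, 28.3 and 30.7 FPKM in HFD libraries, against 14.3, 20.2, 17.01, 17.5 and 19.4 in chow libraries, with no overlap (log2 fold change 0.59, SE 0.11, adjusted p = 0.005). Mthfd2, a mitochondrial folate enzyme and the single call among 29 tested stress-response genes (integrated and mitochondrial), gave a log2 fold change of 0.69 with adjusted p = 0.045, a call lost without RT1, RT3, RT5, RT8, RT10, RT12, RT16, RT18 or RT19, with adjusted p up to 0.11. Rasd1, a glucocorticoid-induced Ras relative, gave a log2 fold change of 0.78 with adjusted p = 0.035, a call lost without RT1, RT5, RT10, RT12, RT14 or RT18, with adjusted p up to 0.093. Of 28 tested genes responsive to glucocorticoids or FOXO factors, 3 passed, all higher (1.41% of all genes tested were higher), and the median of the list was 0.28. They were Fbxo32 and the PPAR-alpha list members Pdk4 and Angptl4. Fbxo32, a muscle ubiquitin ligase, gave a log2 fold change of 0.32 with adjusted p = 0.038, a call lost without RT1, RT3, RT5, RT10, RT12, RT14 or RT18, with adjusted p up to 0.11. Among other stress and quality-control genes, the glutathione transferase Gsta3 rose by a log2 fold change of 0.53 with adjusted p = 0.019, a call lost without RT1, RT3 or RT18, with adjusted p up to 0.053. Its relative Gstm6 was lower, by a log2 fold change of -0.33 with adjusted p = 0.018, a call lost without RT3 or RT14, with adjusted p up to 0.058. Gstm2 was lower as well, by a log2 fold change of -0.28 with adjusted p = 0.039, a call lost without RT3, RT8, RT10, RT12, RT14, RT16 or RT18, with adjusted p up to 0.11. These transferases share sequence with near relatives, so their separate levels are uncertain. Phb2 was higher and Ulk1 lower among 36 genes of mitophagy and autophagy, at log2 fold changes of 0.21 and -0.18, the first lost without RT1, RT3, RT8, RT10 or RT12, with adjusted p up to 0.078 and the second without RT1, RT3, RT5, RT8, RT12, RT14, RT16 or RT19, with adjusted p up to 0.12.

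The transcripts that fell were led by a natriuretic peptide and an amino acid enzyme. Nppb (chr4:147985788-147987205, plus strand), which encodes B-type natriuretic peptide, a marker of wall stress, had 60.5, 74.2, 50.9, 38.9 and 84.8 FPKM in HFD libraries, against 204, 132, 279, 147 and 183 in chow libraries. Each HFD library was lower than each chow library, and the mean was 0.327 times that of chow (log2 fold change -1.60, SE 0.30, adjusted p = 0.008). It was the only one of 20 tested genes of cardiac stress and hypertrophy that passed, with a list median of -0.14. Nppa had 20.9, 72.3, 37.1, 32.8 and 49.8 FPKM in HFD libraries, against 338, 77.2, 124, 137 and 55.5 in chow libraries, and did not pass (log2 fold change -1.59, SE 0.46, adjusted p = 0.081). The high chow value came from RT1, the library with atrial transcripts, and Nppa is also an atrial gene. Over the 10 atrial markers the sums were 158.9 to 219.5 FPKM in HFD hearts and 206.2 to 869.2 in chow hearts, and 0 of the 7 tested passed. Without RT1 Nppb was still called, as it was with each other library left out (adjusted p up to 0.026). Myh7, the slow myosin heavy chain, gave a log2 fold change of -0.85 with adjusted p = 0.27, and Ankrd1, chosen after its values were seen, lay wholly lower without passing (log2 fold change -0.87, adjusted p = 0.11).

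Abat (chr16:8513429-8621568, plus strand), the mitochondrial GABA transaminase, had the smallest p of all genes named here. It had 1.499, 2.07, 1.46, 2.03 and 1.45 FPKM in HFD libraries, against 7.49, 8.08, 7.66, 6.96 and 5.26 in chow libraries. All 5 HFD values were below every chow value, with the mean at 0.2401 times that of chow (log2 fold change -1.58, SE 0.11, adjusted p = 2.1e-08). Abat was 1 of 23 tested genes of branched-chain amino acid catabolism, where it was the sole call. The median of that list was -0.096, and 2 of 23 values were above 0. On the FPKM as deposited 13 of its genes were lower, beside 929 of all 12775 genes tested. Scgb1c1, a small secreted protein of the secretoglobin family (chr7:140845547-140846769, plus strand), had 5.57, 5.25, 5.58, 6.11 and 5.801 FPKM in HFD libraries, against 14.96, 17.2, 15.8, 16.8 and 13.9 in chow libraries. Both groups were narrow and did not overlap (log2 fold change -1.32, SE 0.13, adjusted p = 1.1e-05). Gnb3, a G-protein beta subunit (chr6:124834240-124840275, minus strand), had 1.97, 2.71, 2.52, 2.92 and 4.14 FPKM in HFD libraries, against 7.51, 7.66, 9.02, 8.15 and 9.02 in chow libraries, again with no overlap (log2 fold change -1.29, SE 0.14, adjusted p = 1.1e-05). Gcat and Gnmt, enzymes of threonine and glycine breakdown, were both lower. Gcat gave a log2 fold change of -0.62 with adjusted p = 0.00044. Gnmt gave a log2 fold change of -0.60 with adjusted p = 0.0014, although it lay under 1 FPKM in every HFD library and dropped out under a stricter filter. Doc2g, a C2-domain protein, ranged over 65.2 to 108 FPKM in HFD hearts against 114 to 136 in chow hearts (log2 fold change -0.69, SE 0.11, adjusted p = 0.0014). Phlda1, Cdkl1, Epn3, Lrrc4b and Tuba1c were lower by log2 fold changes between -0.76 and -0.59, each without overlap. Poln, a DNA polymerase, gave a log2 fold change of -0.62 with adjusted p = 0.034, a call lost without RT3, RT5, RT8, RT12, RT14, RT16 or RT19, with adjusted p up to 0.098.

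Sarcomere transcripts were lower in part. Of 25 tested genes of the sarcomere and cardiomyocyte structure, 6 were lower and none higher (1.19% of all genes tested were lower). The median was -0.10, and 14 were lower on the FPKM as deposited, beside 929 of all 12775 genes tested. Myom2, an M-band protein, had 156, 157, 139, 140.5 and 152 FPKM in HFD libraries, against 225, 207, 249, 254 and 191 in chow libraries, with no overlap (log2 fold change -0.59, SE 0.11, adjusted p = 0.0039). Synpo2l, a Z-disc actin-binding protein, had 22.3, 24.2, 28.4, 24.6 and 23.6 FPKM in HFD libraries, against 31.4, 30.3, 35.8, 31.3 and 29.9 in chow libraries (log2 fold change -0.36, SE 0.076, adjusted p = 0.012), again without overlap. Both were called with each library left out. Mybpc3, cardiac myosin-binding protein C, gave a log2 fold change of -0.28 with adjusted p = 0.023, a call lost without RT5, RT8, RT12 or RT14, with adjusted p up to 0.081. Tnnc1, cardiac troponin C, gave a log2 fold change of -0.27 with adjusted p = 0.032, Myl3, a ventricular myosin light chain, gave a log2 fold change of -0.26 with adjusted p = 0.034, and Myoz2, a Z-disc protein chosen after its values were seen, gave a log2 fold change of -0.22 with adjusted p = 0.038. These 3 overlapped between diets, with HFD library RT19 at chow level, and were called in only 1 or 2 of the 10 fits that left out a library, so that 2 or 3 sarcomere calls were left without RT3, RT5, RT8, RT12, RT14, RT16 or RT18 and 8 were made without RT19. Myh6, the main myosin of mouse ventricle and likewise chosen after its values were seen, gave a log2 fold change of -0.078 with adjusted p = 0.63. Of the 13 cardiomyocyte markers, 3 were lower and none higher (median -0.095), namely Mybpc3, Tnnc1 and Myl3 again, with 5 lower and 1 higher without RT19 and none lower without RT5, RT8, RT12 or RT14. Their sum was 43240, 39680, 43490, 41890 and 51930 FPKM in HFD libraries, against 45540, 47190, 48700, 47400 and 47940 in chow libraries, so that RT19 lay above every chow library and the other 4 HFD libraries below every one. The part of this sum in the sarcomere counts was not tested. Among 26 tested potassium and sodium channel genes, Scn4b was the higher call and Kcnip2, the gene for an accessory protein of fast potassium channels, the lower one (49.96 to 61.7 FPKM in HFD hearts against 69.95 to 73.8 in chow hearts, log2 fold change -0.38, SE 0.064, adjusted p = 0.0018).

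**Figure D4:**
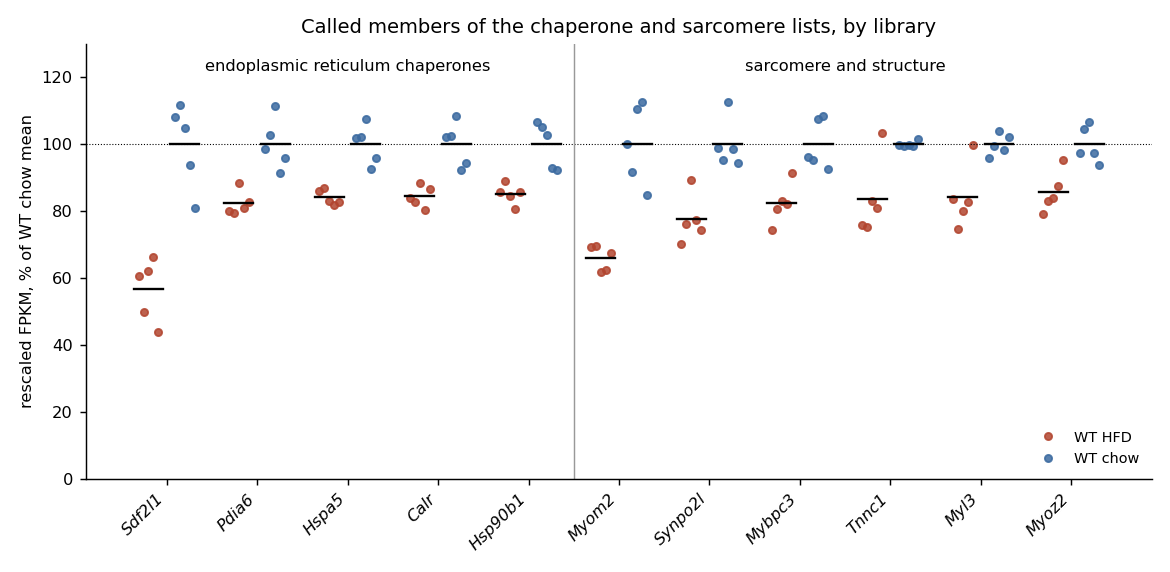
Level in each HFD and chow WT library as a percentage of the chow mean (y axis) for 5 endoplasmic reticulum chaperones and 6 sarcomere genes that were lower in HFD hearts. Each dot is a library, and the HFD dots of Tnnc1, Myl3 and Myoz2 reach into the chow range.

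Chaperones of the endoplasmic reticulum were lower in part, by small amounts. Of 23 tested genes, 5 were lower and none higher (1.19% of all genes tested were lower), with a median of -0.13, and 6 of 23 were above 0. Without RT5 the count was 3, otherwise 4 to 6. On the FPKM as deposited 10 were lower, beside 929 of all 12775 genes tested. Hspa5 (BiP), the luminal Hsp70, had 182, 184, 176, 174 and 176 FPKM in HFD libraries, against 216, 216, 228, 196 and 203 in chow libraries (log2 fold change -0.25, SE 0.055, adjusted p = 0.016), a call lost without RT5, with adjusted p up to 0.057. Calr, calreticulin, had 87.1, 85.7, 91.7, 83.2 and 89.7 FPKM in HFD libraries, against 106, 106, 112, 95.7 and 97.95 in chow libraries (log2 fold change -0.24, SE 0.051, adjusted p = 0.011). Hsp90b1, the luminal Hsp90, had 101, 105, 99.7, 95.2 and 101 FPKM in HFD libraries, against 126, 124, 121, 109.8 and 109 in chow libraries (log2 fold change -0.23, SE 0.049, adjusted p = 0.012). The groups of all 3 were separate. Pdia6, a disulfide isomerase chosen after its values were seen, gave a log2 fold change of -0.27 with adjusted p = 0.017, a call lost without RT5 or RT12, with adjusted p up to 0.059, and Sdf2l1, a cofactor of BiP with the largest fold change of the list, ranged over 1.46 to 2.21 FPKM in HFD hearts against 2.698 to 3.72 in chow hearts (log2 fold change -0.59, SE 0.10, adjusted p = 0.0019). Herpud1, Atf6 and Eif2ak3 lay above 0 at 0.54, 0.21 and 0.14 and did not pass.

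These chaperone genes are textbook targets of the unfolded protein response, whose factor ATF6 binds the ER stress response element together with NF-Y. The element was searched as CCAAT, then 9 bases of any kind, then CCACG, on both strands. Among the RefSeq promoters (GRCm38.p6, 250 bases before to 50 after the start, and 9500 tested genes with an entry), it was found for 4 of the 5 lower chaperones and for 8 of the 20 list members that matched, against 4 of 125 lower genes of all kinds (3.2%), 14 of 9500 tested genes (0.147%) and 39 of all 32851 promoters (0.119%). The 4 matches among the 125 lower genes were these same 4 chaperones, so no other lower gene with an entry held the element. The 14 tested genes likewise include the 8 list members. The match describes letters and no binding, and Sdf2l1 had none in its window. The 4 windows are shown because they carry the element, which stands in capitals and reads CCAAT first on the plus orientation or CGTGG first on the minus orientation, with positions counted from the start site. They are Hspa5 (chr2:34771840-34772139, plus strand, element at -65 to -47), Pdia6 (chr12:17266339-17266638, plus strand, -98 to -80), Calr (chr8:84846882-84847181, minus strand, -162 to -144, minus orientation) and Hsp90b1 (chr10:86705395-86705694, minus strand, -212 to -194, and -107 to -89 in minus orientation), each printed 5′ to 3′ on the gene's strand.
Hspa5: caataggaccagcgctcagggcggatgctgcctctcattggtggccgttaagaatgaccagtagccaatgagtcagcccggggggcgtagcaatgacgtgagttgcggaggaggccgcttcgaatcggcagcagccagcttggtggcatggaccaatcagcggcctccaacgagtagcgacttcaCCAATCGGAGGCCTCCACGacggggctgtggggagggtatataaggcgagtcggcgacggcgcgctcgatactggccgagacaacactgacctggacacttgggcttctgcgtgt
Pdia6: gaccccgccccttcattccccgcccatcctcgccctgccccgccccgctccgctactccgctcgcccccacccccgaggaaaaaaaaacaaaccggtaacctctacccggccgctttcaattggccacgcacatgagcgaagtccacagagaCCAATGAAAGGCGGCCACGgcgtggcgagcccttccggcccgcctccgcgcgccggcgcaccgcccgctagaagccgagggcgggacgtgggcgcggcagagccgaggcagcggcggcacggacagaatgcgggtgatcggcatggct
Calr: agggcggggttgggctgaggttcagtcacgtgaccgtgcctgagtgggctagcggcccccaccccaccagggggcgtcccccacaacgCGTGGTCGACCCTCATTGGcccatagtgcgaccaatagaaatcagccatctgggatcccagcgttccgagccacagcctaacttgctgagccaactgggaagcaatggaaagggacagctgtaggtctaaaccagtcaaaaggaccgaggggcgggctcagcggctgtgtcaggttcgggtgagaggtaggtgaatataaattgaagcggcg
Hsp90b1: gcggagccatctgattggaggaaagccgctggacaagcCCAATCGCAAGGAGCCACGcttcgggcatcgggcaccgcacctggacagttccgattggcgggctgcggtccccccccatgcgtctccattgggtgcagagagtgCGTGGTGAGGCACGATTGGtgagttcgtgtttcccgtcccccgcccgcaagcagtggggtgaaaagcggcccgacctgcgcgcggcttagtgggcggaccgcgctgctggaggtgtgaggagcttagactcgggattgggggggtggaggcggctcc

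Of 21 tested circadian clock genes, 2 were lower and none higher (1.19% of all genes tested were lower), with a median of 0.0033. Ciart, a repressor in the clock loop, had 6.27, 5.81, 4.32, 4.99 and 5.21 FPKM in HFD libraries, against 7.25, 10.04, 9.48, 9.73 and 6.71 in chow libraries, with no overlap (log2 fold change -0.60, SE 0.13, adjusted p = 0.013). Dbp, a clock output factor, ranged over 43.1 to 52.96 FPKM in HFD hearts against 59.4 to 69.8 in chow hearts (log2 fold change -0.42, SE 0.10, adjusted p = 0.035), lost without RT3, RT5, RT8, RT10, RT12, RT14, RT18 or RT19, with adjusted p up to 0.092. Nr1d1, chosen after its values were seen, also lay wholly lower but did not pass (log2 fold change -0.61, adjusted p = 0.15), while Arntl, Clock and Per1 lay at -0.044, -0.079 and 0.059. Times of day of tissue collection were not given in the sources used here, and a difference in that time between diets cannot be told apart from diet. The E-box CACGTG, to which the clock activators bind, occurs 3 times in the Ciart promoter (chr3:95882179-95882478, minus strand), with first bases at -116, -58 and -44. It was found on either strand in 5 of the 16 clock genes that had an entry and in 11.8% of tested genes. The Ciart window is shown 5′ to 3′ on the gene's strand because it belongs to the lower clock gene called with each library left out, with its E-boxes in capitals.
Ciart: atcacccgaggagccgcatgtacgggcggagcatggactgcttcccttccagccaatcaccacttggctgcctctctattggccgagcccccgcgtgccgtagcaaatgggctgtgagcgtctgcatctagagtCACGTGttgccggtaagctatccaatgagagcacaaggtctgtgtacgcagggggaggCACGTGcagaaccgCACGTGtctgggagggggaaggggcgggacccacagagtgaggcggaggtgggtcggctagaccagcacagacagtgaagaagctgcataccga

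Many cell-type and tissue-remodelling genes gave no call. None of 21 tested collagens, 45 other matrix genes, 21 immediate-early genes, 23 calcium-handling genes, 19 cytosolic heat shock genes or 15 proliferation genes passed in either direction. Col1a1 and Col3a1, the main fibrillar collagens, gave a log2 fold change of -0.23 with adjusted p = 0.64 and a log2 fold change of -0.27 with adjusted p = 0.54. Among 16 VEGF-pathway and apelin genes, 1 was lower, Apln, the ligand of the apelin receptor (3.19 to 3.75 FPKM in HFD hearts against 4.87 to 5.42 in chow hearts, log2 fold change -0.45, SE 0.074, adjusted p = 0.0013). Of 28 tested interferon-stimulated genes, 1 was higher, Rsad2 (log2 fold change 0.30, adjusted p = 0.046), lost without RT1, RT3, RT5, RT8, RT10, RT12, RT14, RT18 or RT19, with adjusted p up to 0.12. Fibroblast markers summed to 764 to 857 FPKM in HFD hearts and 689 to 807 in chow hearts, and macrophage markers to 169 to 221 in HFD hearts and 206 to 228 in chow hearts, with 0 of 11 and 0 of 15 tested called. Endothelial markers summed to 300.4 to 309.8 FPKM in HFD hearts and 291.6 to 305.6 in chow hearts. Of 80 cytosolic ribosomal protein genes, 1 passed, Rpl5 (log2 fold change 0.23, adjusted p = 0.03), lost without RT3, RT8, RT10, RT12 or RT18, with adjusted p up to 0.086. Its low FPKM beside many processed copies makes the value uncertain.

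The same diet contrast in iKO hearts, which shares no library with the WT contrast, put the WT values beside a separate set of mice. The iKO chow libraries were numbered 2 to 9 and the iKO HFD libraries 11 to 20. Library order thus has the same relation to diet in both genotypes, and its part in the shared signs was not tested. In iKO hearts 565 genes passed (4.42% of the genes tested), 324 higher and 241 lower. Of the 332 genes called in WT hearts, 322 (97.0%) had the same sign in iKO hearts, against 66.9% of all genes tested, and 190 passed in both, which is 57.2% of the WT calls and 33.6% of the iKO calls. The test of the difference, WT diet effect minus iKO diet effect in the same limma fit, gave 0 genes (0%) at adjusted p under 0.05, with a smallest adjusted p of 0.096 and 526 genes at unadjusted p under 0.05. A count of 0 was also found under most other settings, with 4 on the FPKM as deposited, 7 with scaling outside mitochondrially encoded genes, 3 with a residual component as covariate, 1 without RT10 and 4 without RT17. For PPAR-alpha targets 32 of 36 were higher in iKO hearts, with a median of 0.54, beside 26 and 0.32 in WT hearts. The difference lay below 0 for 35 of the 36. In its limma test 20 had an unadjusted p under 0.05, beside 526 of all 12775 genes tested, and 0 passed after adjustment. In mitochondrial fatty acid oxidation 18 of 23 were higher in iKO hearts, with a median of 0.43, beside 14 and 0.22 in WT hearts. There the difference lay below 0 for 19 of the 23, with an unadjusted p under 0.05 for 12 and 0 passing. Acot1 had a log2 fold change of 1.22 in WT and 2.06 (SE 0.13, adjusted p = 2.6e-09) in iKO hearts, with an unadjusted p of 0.00015 and an adjusted p of 0.39 for the difference. Its mean was 2.88 FPKM in iKO chow and 15.1 in iKO HFD hearts, against 7.16 and 17.9 in WT hearts. Hadha likewise stood at 333 and 498 in iKO hearts, against 457 and 570 in WT hearts. Pdk4 (44.8 and 346, against 98.8 and 326) and Angptl4 (1.85 and 12.5, against 2.61 and 9.47) were lower in iKO hearts on chow only. Scn4b gave 0.59 in WT and 1.43 (SE 0.11, adjusted p = 4.3e-08) in iKO hearts, and Fbp2 0.68 in WT and 1.20 (SE 0.072, adjusted p = 1.3e-09) in iKO hearts, each with an adjusted p of 0.13 for the difference. Abat, Gnb3 and Dbi had nearly the same values in both, -1.58, -1.29 and 0.63 in WT hearts and -1.51, -1.34 and 0.64 in iKO hearts. Tfrc and Nppb were further from 0 in WT hearts, at 1.90 and -1.60, than in iKO hearts, at 1.37 and -0.73, with unadjusted p of 0.08 and 0.058 for the difference. The ER chaperones held 5 lower genes in WT hearts and 1 in iKO hearts, and Hspa5 gave -0.25 in WT and -0.064 (SE 0.055, adjusted p = 0.61) in iKO hearts, with an unadjusted p of 0.03 and an adjusted p of 1 for the difference.

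**Figure D5:**
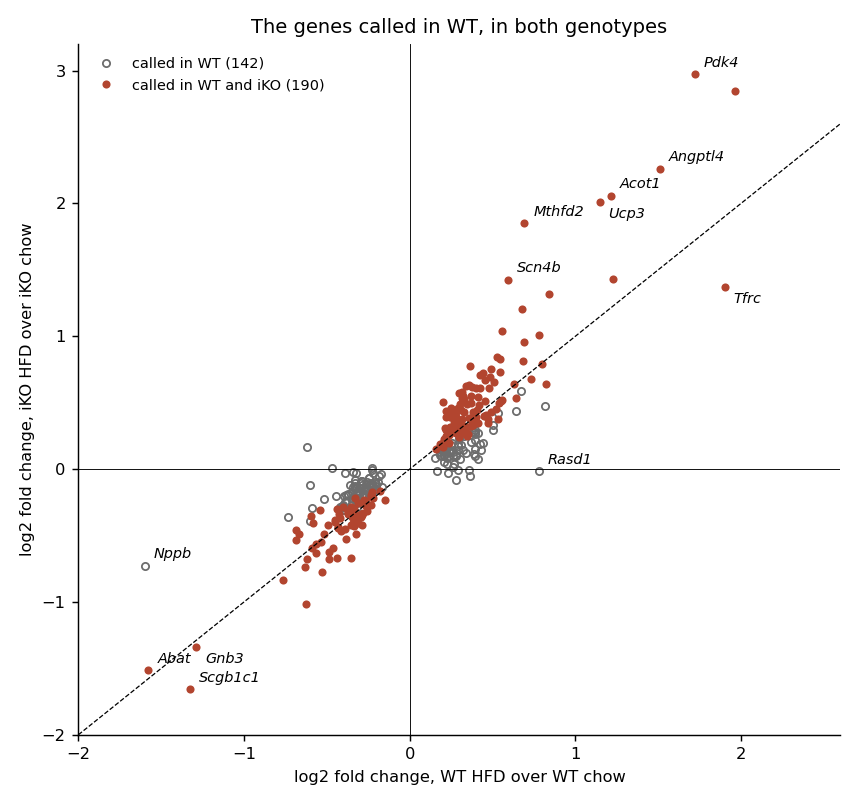
Log2 fold change of HFD over chow in WT hearts (x axis) against iKO hearts (y axis) for the 332 genes called in WT hearts. Filled red points are the 190 genes also called in iKO hearts, open points the rest, and 322 of the points lie in the quadrants where the signs are equal.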

How the data were processed

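The submitters' processing notes name Bowtie2, RSEM, DESeq2 and the mm9 build, whereas 24938 of the 25052 gene IDs match GENCODE M21 (GRCm38) by stem, from which coordinates were taken. The versions of those tools are not given in the sources used here. The labels' protocols describe poly(A)-selected TruSeq libraries, sequenced as 100 nt single reads on an Illumina HiSeq. The deposited values are FPKM per gene, computed by the authors, with no counts, so no count model was run. Assigned reads were estimated from the steps of 1 read in short genes, of whose values about 48 to 67% came out whole within 0.05.

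Here FPKM were divided by median-of-ratios size factors (0.896 to 0.960 in WT HFD and 0.989 to 1.04 in WT chow libraries), because the mitochondrial share differed by diet. Genes with at least 0.5 FPKM in at least 5 of 20 libraries were tested on log2(FPKM + 1) with limma 3.58.1 in R 4.3.3 (trend and robust moderation, 4 group means over 20 libraries, two-sided, Benjamini-Hochberg over 12775 genes, called at 0.05). Fold changes on this scale understate those of low genes. Other steps used Python 3.11.15, pandas 2.3.3, numpy 2.4.6, scipy 1.17.1 and matplotlib 3.10.9, and the fit was tested on simulated data. No 2 libraries held identical values, and library correlations were 0.983 to 0.995.

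The text names genes by rule: the 15 rises and 15 falls of greatest size among called genes whose mean log2 level was 1 or more, the 4 called members of smallest p in each list, and a short fixed set. A gene that the rule names is not reported here. All other genes named were chosen after their values were seen. Members and lists were chosen with earlier results of these data known. Alternatives were 3 scalings, pseudocounts of 0.1 and 0.5, no filter, at least 1 FPKM in 10 libraries, the 10 WT libraries alone, no robust moderation, library weights, the first residual principal component as covariate, and each library left out. For the difference between genotypes, the scaling outside mitochondrially encoded genes and the fits without robust moderation, with weights or with the component were added after seeing the data. Promoter sequences were those of RefSeq (GRCm38.p6).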

Additional observations from a re-analysis of the deposited data

Results flagged for a closer look

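Of 260 sets of 5 WT libraries examined, 23 held 1 library separated from its nearest neighbour by more than 0.71 of the whole range, where chance alone gives about 1 set in 20. Chow library RT1 recurred most often. It was the highest chow library for the atrial transcripts Nppa (338), Myl7 (139) and Sln (54.0), and the lowest for Decr1 (151), Fabp3 (3240), Acaa2 (484), Hadhb (1190), Acadm (624) and Myh6 (2310), all in rescaled FPKM. A smaller atrial signal stood out in HFD library RT16, with Myl7 at 3.0.

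HFD library RT19 had the lowest size factor of its group (0.896), the highest Acat1 (231), Phb2 (110) and Tnnc1 (2150), the lowest Ppara (7.88), and a Sln value of 0.324 where its group was otherwise at 0. In HFD library RT12 Srebf2 was lowest, at 2.8. Among chow libraries, RT3 was highest for Ucp3 (25.5) and Agpat3 (57.6), RT5 for Synpo2l (35.8) and RT10 for Tnnc1 (2120), while RT10 was lowest for Fbp2 (16.5) and RT8 for Steap4 (12.9). What these separations come from was not tested.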

How the results depend on the processing

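The number of higher genes, 180 as reported, was 98 on the FPKM as deposited, 99 when scaled outside mitochondrially encoded genes, 111 with no filter, 420 with library weights and 271 with a residual component as covariate. The number of lower genes, 152 as reported, was 929 on the FPKM as deposited, 492 when scaled outside mitochondrially encoded genes, 93 with no filter and 393 with library weights. Leaving out 1 library gave 106 to 211 higher and 87 to 193 lower genes, and the mitochondrially encoded share kept its direction in each such test. With no filter more genes were tested, and with 1 library left out fewer samples were. For the other settings the cause was not tested. None of the 332 called genes changed sign under any of the 11 alternatives or 10 single-library omissions, and 130 were called under all of them. For the 3 scalings the kept signs say little. The median over all genes tested then lay between -0.084 and -0.016, small beside the median size of 0.33 among the called genes. The difference between genotypes, 0 as reported, gave 4 genes on the FPKM as deposited, 7 when scaled outside mitochondrially encoded genes, 3 with the residual component, and 0 to 4 with 1 library left out. Signs turned for the Acacb log2 fold change (-0.0326 on the FPKM as deposited and -0.015 when scaled outside mitochondrially encoded genes) and for the Ppara log2 fold change (0.0511 with library weights and -0.0946 to 0.0927 with 1 library left out), neither of which was called. No paired analysis was possible because the groups share no library number. Depth limits genes near 1 FPKM, and diet cannot be told apart from the order of the library numbers.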

Other observations

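The genes in these paragraphs belong to none of the lists above and were chosen after their values were seen, for their small p or for a known enzyme role. Several further lipid and retinoid enzymes were higher in HFD hearts. Ephx2, the soluble epoxide hydrolase that opens fatty acid epoxides, had 166, 157, 167, 169 and 193 FPKM in HFD libraries, against 114, 119, 118, 117 and 113 in chow libraries, with no overlap (log2 fold change 0.54, SE 0.050, adjusted p = 2.0e-06, limma). Hsdl2, a peroxisomal dehydrogenase-like protein, ranged over 146 to 155 FPKM in HFD hearts against 104 to 115 in chow hearts (log2 fold change 0.45, SE 0.068, adjusted p = 0.00061). Retsat, retinol saturase, gave a log2 fold change of 0.43 with adjusted p = 0.0032, with overlapping groups. Klf11, a Krüppel-like transcription factor, ranged over 3.97 to 4.51 FPKM in HFD hearts against 2.44 to 3.28 in chow hearts (log2 fold change 0.45, SE 0.065, adjusted p = 0.00041). Impa2, an inositol monophosphatase, gave a log2 fold change of 0.56 with adjusted p = 0.00043, and Chrna2, a nicotinic receptor subunit, gave a log2 fold change of 0.69 with adjusted p = 0.00018, at 1.32 to 2.03 FPKM in HFD hearts against 0.519 to 0.903 in chow hearts.

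Enzymes that feed or drain amino acids and oxaloacetate were among the lower genes. Pcx, pyruvate carboxylase, had 4.99, 5.52, 5.102, 6.02 and 5.52 FPKM in HFD libraries, against 6.89, 7.81, 8.03, 8.003 and 7.62 in chow libraries, with no overlap (log2 fold change -0.43, SE 0.067, adjusted p = 0.00076). Kyat3, a kynurenine aminotransferase, ranged over 10.6 to 12.4 FPKM in HFD hearts against 14.6 to 16.6 in chow hearts (log2 fold change -0.39, SE 0.062, adjusted p = 0.00097), and Gcdh, glutaryl-CoA dehydrogenase of lysine breakdown, over 21.5 to 24.2 FPKM in HFD hearts against 27.01 to 29.9 in chow hearts (log2 fold change -0.31, SE 0.062, adjusted p = 0.008). Lmcd1, a LIM-domain cofactor of muscle transcription, was lower as well (9.33 to 12.6 FPKM in HFD hearts against 13.7 to 18.4 in chow hearts, log2 fold change -0.54, SE 0.073, adjusted p = 0.00018). All of these except Retsat separated the diets completely, and all were called with each library left out. In iKO hearts every one had the same sign, at 0.73 for Ephx2, -0.44 for Pcx and -0.53 for Kyat3.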
